A study of Homo sapiens with 52 samples.

Results

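Expression of 10 genes of the WNT pathway was examined across 52 RNA-seq samples, in which a cell line of fusion-positive rhabdomyosarcoma (FP-RMS) had received a small molecule, in most cases directed at chromatin, or solvent. The genes were taken by name from 27043 genes listed in every sample. They comprised the secreted WNT antagonists SFRP1, SFRP2, DKK1, DKK3 and WIF1, the intracellular feedback inhibitors AXIN2, NKD1 and NKD2, and the transcription factors LEF1 and TCF7. FP-RMS is a childhood muscle-like tumour driven by a fusion of PAX3 or PAX7 with FOXO1, and RH4 is a cell line derived from such a tumour. The label for cell line gave RH4 for every sample, whereas the titles of the screen samples read RH41, so the screen and the RH4-titled samples were kept apart.

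The screen comprised 44 samples collected after 6 h. Each of 20 compounds had 1 high-dose and 1 low-dose sample, the doses being 10 and 1 µM, or 5 and 0.5 µM for LAQ824, Cpd50 and GSKJ4. The solvent controls were 2 samples in 0.2% DMSO, matched to the high doses, and 2 in 0.1% DMSO, matched to the low doses. These concentrations are those of the labels, and the study's methods state a lower final DMSO concentration. Of the compounds, 7 target the acetylation axis: LAQ824 (HDAC), Merck60 (HDAC1/2), OJI-1 (HDAC8), MC1568 (HDAC4/5), WT161 (HDAC6), Bromosporin (bromodomains) and SGC-CBP30 (CREBBP/EP300 bromodomain). A further 11 target the methylation axis: Cpd50, EZ-005, GSKJ4, GSKLSD1, LSD-519, LSD-690, PFI-2, SGC0946, UNC0638, UNC-1215 and UNC1999. PFI-3 (SMARCA4) and trametinib (MEK1/2) belong to neither. The RH4-titled samples comprised 1 µM N1302 for 6 h with 1 sample in 0.1% DMSO, and 1 µM entinostat for 1, 6 and 24 h, each time with 1 sample in 0.1% DMSO. Both of these compounds inhibit HDACs.

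In the absence of WNT, a cytoplasmic complex built on AXIN and APC marks beta-catenin for destruction. WNT proteins bind frizzled receptors and the co-receptors LRP5 and LRP6, beta-catenin then accumulates, and it acts in the nucleus through LEF1 and TCF7. SFRP1, SFRP2 and WIF1 bind WNT proteins outside the cell, DKK1 blocks LRP5 and LRP6, AXIN2 rebuilds the destruction complex, and NKD1 and NKD2 bind dishevelled. AXIN2, LEF1, NKD1 and DKK1 are themselves well-known WNT target genes, so several members both limit the pathway and report on it. DKK3 is the most divergent member of the dickkopf family, and its role in WNT signalling varies with the setting.

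Stretches of DNA before a RefSeq start of DKK1, LEF1 and NKD2 are shown because DKK1 and LEF1 fell together under LAQ824 and WT161 while NKD2 rose. They are the 250 bases before that start in GRCh38.p14, written 5′ to 3′ on the strand of the gene. The start used for LEF1 lies inside the gene and not at its 5′ end. The LEF1 stretch therefore does not describe the DNA before that end. Capitals mark the letters CTTTGA, 1 form of the core recognised by LEF1 and TCF7, or its reverse complement TCAAAG. Other forms of the core were not searched for and stay in lower case.
DKK1, chr10:52314031-52314280, plus strand: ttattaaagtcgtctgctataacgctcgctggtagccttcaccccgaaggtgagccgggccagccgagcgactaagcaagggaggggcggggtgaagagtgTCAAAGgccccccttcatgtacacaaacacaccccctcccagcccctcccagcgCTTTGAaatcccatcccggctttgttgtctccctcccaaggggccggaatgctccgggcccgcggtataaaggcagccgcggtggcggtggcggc
LEF1, chr4:108166302-108166551, minus strand: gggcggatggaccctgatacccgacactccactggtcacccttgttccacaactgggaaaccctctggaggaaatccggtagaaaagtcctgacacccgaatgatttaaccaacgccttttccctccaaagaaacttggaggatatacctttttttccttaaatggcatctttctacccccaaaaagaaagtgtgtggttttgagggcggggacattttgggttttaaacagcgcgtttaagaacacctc
NKD2, chr5:1008552-1008801, plus strand: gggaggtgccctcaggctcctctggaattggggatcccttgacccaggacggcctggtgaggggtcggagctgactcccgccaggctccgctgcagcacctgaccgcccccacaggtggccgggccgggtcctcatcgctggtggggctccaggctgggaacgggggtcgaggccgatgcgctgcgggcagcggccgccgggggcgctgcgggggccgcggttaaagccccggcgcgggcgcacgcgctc
The DKK1 stretch held 2 matches, starting at positions 102 (minus strand) and 156 (plus strand), counted from 1 at its 5′ end. The LEF1 and NKD2 stretches held 0 matches. Such letters occurred on either strand in 11.2% of the 35116 stretches of equal length in the RefSeq table, so a match describes these letters and not a bound site. G and C made up 62.8% of the DKK1 stretch, 47.6% of the LEF1 stretch and 75.6% of the NKD2 stretch. RefSeq stretches were used for 6 of the 10 genes. DKK3, AXIN2 and NKD1 had no entry under their names, and SFRP1 was left out without a search.

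In the hg19 coordinates of the files, DKK1 lies at chr10:54074041-54077417, LEF1 at chr4:108968701-109090112, NKD2 at chr5:1009077-1038927, DKK3 at chr11:11984543-12030917 and AXIN2 at chr17:63524683-63557740. All 10 genes are protein coding. The 5′ end of LEF1, which lies on the minus strand, overlaps the antisense gene LEF1-AS1, and DKK1, on the plus strand, overlaps the antisense gene PRKG1-AS1. Whether reads were counted by strand is not given in the sources used here, so reads within these overlaps cannot be assigned to a strand. LEF1-AS1 was listed with 1 to 5 reads in each screen DMSO sample and PRKG1-AS1 with at most 1.

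Levels are given as TPM, a share of all transcripts scaled for gene length, so genes can be compared with each other. In DMSO the 10 genes spanned a wide range. DKK3 was the highest at 51.9 TPM ± 1.69 (SD, n = 2 DMSO concentrations), followed by SFRP1 at 21.7 ± 1.22, LEF1 at 12.7 ± 0.45 and DKK1 at 11.2 ± 2.12. AXIN2 stood at 6.29 TPM ± 0.314, TCF7 at 3.99 ± 0.0503 and NKD2 at 0.611 ± 0.052. LEF1 and DKK1 were neighbours whose difference lay within the spread of DKK1, and the other neighbours down to NKD2 differed by more than their spreads. WIF1 (0.123 TPM ± 0.174), NKD1 (0.0676 ± 0.0041) and SFRP2 (0.0205 ± 0.029) were close to 0, with between 0 and 6 reads in a DMSO sample.

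**Figure D1:**
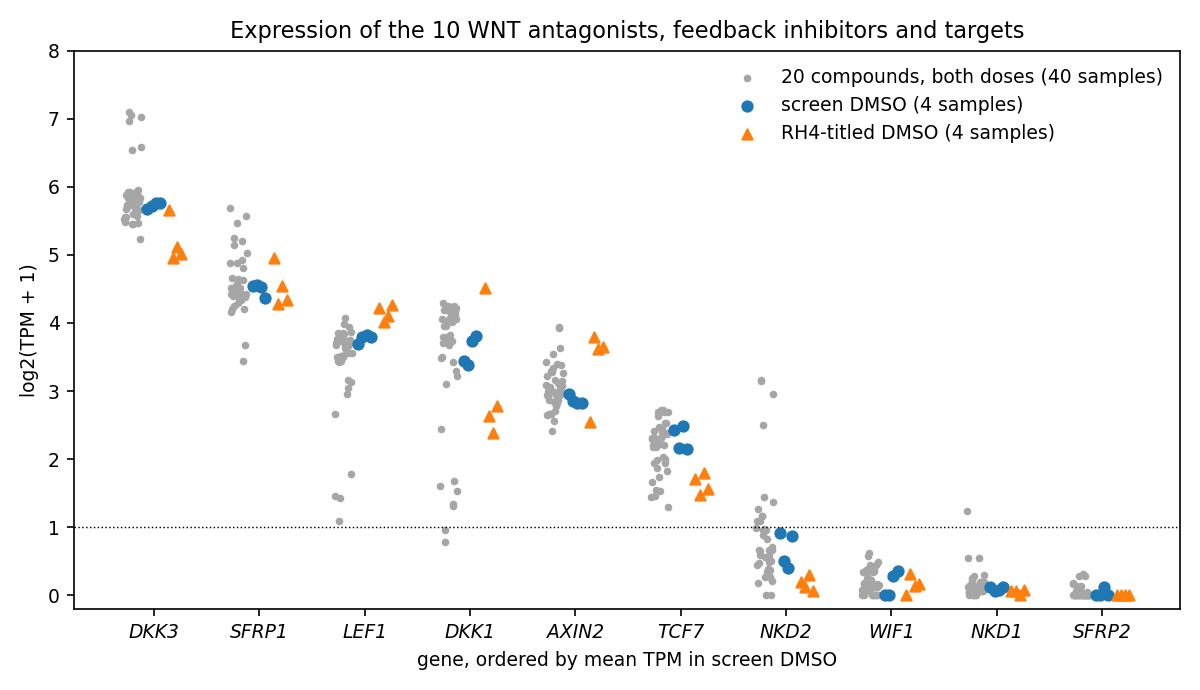
Level of each gene as log2(TPM + 1) in every screen and RH4-titled DMSO sample; small grey points are the 40 treated screen samples, blue points the 4 screen DMSO samples and orange triangles the 4 RH4-titled DMSO samples, and the dotted line marks 1 TPM. DKK3 is highest and WIF1, NKD1 and SFRP2 lie near 0. LEF1, DKK1, DKK3 and NKD2 have treated samples far from their DMSO samples.

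A gene was tested if it reached 1 TPM in at least 2 of the 52 samples, which 16359 genes and 7 of the 10 members did. NKD2 passed through its treated samples, since it reached 1 TPM in 13 of 52 samples and in 0 of the 4 screen DMSO samples. SFRP2, WIF1 and NKD1 did not pass. SFRP2 stayed at or below 0.244 TPM and 3 reads in all 52 samples, and WIF1 at or below 0.543 TPM and 15 reads. NKD1 reached 1 TPM in 1 sample, described with Bromosporin.

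The 4 screen DMSO samples came as 2 samples at each concentration. Those of the same concentration, run on different flow cells, differed by no more than sampling noise once the flow cell was taken into account, with a variance 1.018 times that of counting over 10378 genes. They were therefore averaged and counted once. The comparison of 0.2% with 0.1% DMSO still entered the 4 samples separately, so its p-values have no independent replicate behind them. In it limma called 0 of 16359 genes (0% called) and 1548 genes had an unadjusted p below 0.05. DKK1 read 12.3 and 13.0 TPM in 0.1% DMSO and 9.87 and 9.46 TPM in 0.2% DMSO, so its samples did not overlap between concentrations. With 2 samples on each side this can easily occur, and the share of all genes that did so was not worked out. The difference in log2(TPM + 1) was -0.36 ± 0.06 (limma adjusted p = 0.511).

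Changes against DMSO are differences in log2(TPM + 1), averaged over both doses, with the standard error from a limma fit over all screen samples. The spread in this fit comes from the difference between the doses of each compound, and p-values were adjusted by Benjamini-Hochberg over all 16359 genes. A change was called at an adjusted p below 0.05. Nothing in the labels says that samples came from separate cultures, so p-values measure the spread between these samples. Of 140 tests of a member against DMSO, 18 were called, against 8.70% of all tests. Members, like the pathway lists given later, were chosen with earlier results of these data known. Their shares are therefore descriptions and not tests against all genes. Those 18 fell to 5 compounds: LAQ824, WT161, Bromosporin, MC1568 and trametinib. Under the other 15 compounds 0 of 105 member tests were called, where 1.86% of all tests were. All 5 comparisons share the same DMSO samples. A bulk measurement cannot tell less RNA per cell from fewer cells of a kind.

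**Figure D2:**
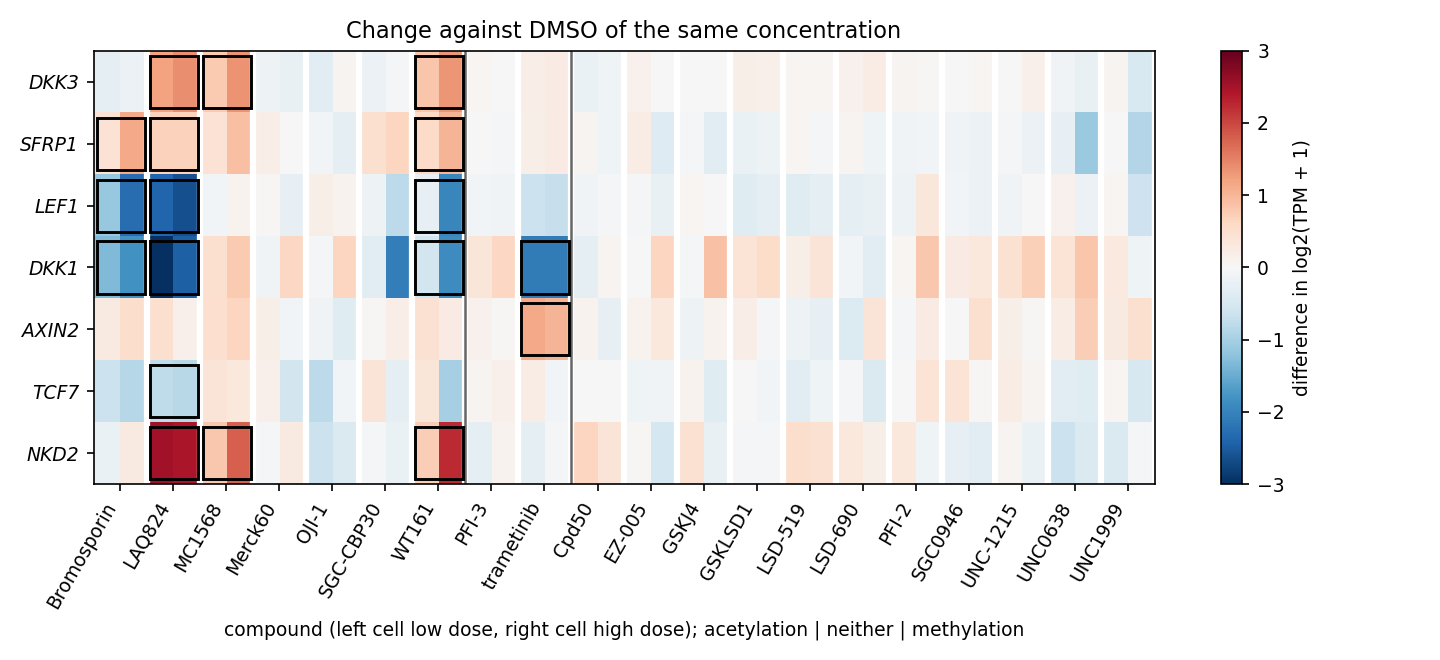
Difference in log2(TPM + 1) from DMSO of the same concentration for the 7 tested genes (rows) and 20 compounds (columns), with the low dose in the left cell and the high dose in the right cell of each column. Black frames enclose the 18 called changes, of which 16 lie among the acetylation-axis compounds on the left and 2 under trametinib. The frames over DKK1 and LEF1 enclose decreases and those over DKK3, SFRP1 and NKD2 increases.

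LAQ824, a pan-HDAC inhibitor, moved 6 of the 7 tested members, in opposite directions. DKK1 and LEF1 fell, TCF7 fell less, and DKK3, NKD2 and SFRP1 rose. This stands against 53.1% of all genes called under LAQ824, 28.4% higher and 24.6% lower, so 3 members higher and 3 lower are a large share of a large background. The median change was 0.32 over the members and 0.06 over all genes.

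DKK1, the LRP5 and LRP6 blocker, read 0.952 TPM at the high and 0.719 TPM at the low dose of LAQ824, on 18 and 16 reads. Every DMSO sample lay between 9.46 and 13.0 TPM, so the groups did not overlap. The change was -2.72 ± 0.46 (limma adjusted p = 3.03e-05). LEF1, the transcription factor that partners beta-catenin, fell from 11.9 to 13.1 TPM in DMSO to 1.14 and 1.69 TPM. Its change was -2.51 ± 0.37 (limma adjusted p = 5.35e-06). TCF7, its close relative, read 1.76 and 1.93 TPM against 3.41 to 4.63 TPM in DMSO. That change, -0.80 ± 0.32, had a limma adjusted p of 0.0399, which became 0.0592 without the 0.2% DMSO replicate 1 and 0.0668 without the 0.1% DMSO replicate 1. LEF1 thus lost most of its level while TCF7 kept a larger part of its own.

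DKK3 rose from 49.9 to 53.1 TPM in DMSO to 136 TPM at the high and 124 TPM at the low dose. This was a change of 1.30 ± 0.16 (limma adjusted p = 6.01e-07). SFRP1, which binds WNT proteins, rose to 37.1 and 34.4 TPM from 19.6 to 22.7 TPM in DMSO, by 0.70 ± 0.26 (limma adjusted p = 0.0246). NKD2 read 0.316, 0.412, 0.832 and 0.882 TPM in the DMSO samples, on 4 to 14 reads. Under LAQ824 it read 7.84 and 7.95 TPM, on 170 and 203 reads, a change of 2.48 ± 0.35 (limma adjusted p = 3.21e-06). AXIN2 read 7.38 and 8.83 TPM, above its DMSO range of 6.06 to 6.80 TPM, and its change of 0.32 ± 0.24 was not called (limma adjusted p = 0.274). Both doses of LAQ824 gave similar levels in each of these genes, although they differed 10-fold.

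WT161, labelled as an HDAC6 inhibitor, moved 5 members in the directions seen with LAQ824, 3 higher and 2 lower. Of all genes 32.0% were called, 17.7% higher and 14.3% lower. Its doses differed more than those of LAQ824. DKK1 read 1.88 TPM at 10 µM and 8.34 TPM at 1 µM, and LEF1 read 2.43 and 10.8 TPM. At the low dose both genes were just below their DMSO samples, while at the high dose they were far below. The changes were -1.22 ± 0.46 for DKK1 (limma adjusted p = 0.0466) and -1.10 ± 0.37 for LEF1 (limma adjusted p = 0.0250). TCF7 split the same way, at 1.46 TPM at the high and 5.45 TPM at the low dose, and its change was not called (-0.32 ± 0.32).

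DKK3 read 129 and 94.8 TPM under WT161, a change of 1.08 ± 0.16 (limma adjusted p = 3.17e-05). SFRP1 read 46.5 and 31.6 TPM, a change of 0.80 ± 0.26 (limma adjusted p = 0.0194). NKD2 read 6.74 and 1.58 TPM, on 78 and 13 reads, a change of 1.49 ± 0.35 (limma adjusted p = 0.00235). These 3 genes were above every DMSO sample at both doses and highest at the high dose. Of the 40 treated screen samples, SFRP1 was above every DMSO sample in 15 and below in 10. For NKD2 these numbers were 15 and 10, and for DKK3 21 and 12. No share over all genes was worked out. Against the mean of the other compounds on its flow cell, which carried no DMSO sample, the decreases under WT161 were no longer called, at -1.06 for DKK1 (limma adjusted p = 0.0528) and -0.80 for LEF1 (0.0717). In a fit of only WT161 and DMSO none of the 5 changes was called (limma adjusted p between 0.0771 and 0.347).

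MC1568, labelled as an HDAC4/5 inhibitor, raised DKK3 and NKD2 and left DKK1 and LEF1 without a called decrease. It thus had 2 members called higher and 0 lower, where 22.5% of all genes were called, 19.6% higher and 2.92% lower. DKK3 read 131 and 92.1 TPM at the high and low dose, a change of 1.07 ± 0.16 (limma adjusted p = 7.99e-05). NKD2 read 4.64 and 1.71 TPM, on 71 and 30 reads, a change of 1.30 ± 0.35 (limma adjusted p = 0.0102). Both genes were above every DMSO sample at each dose. The median change of all genes under MC1568 was 0.26, so these changes are read against an upward shift. In a fit of only MC1568 and DMSO the change of NKD2 was not called (limma adjusted p = 0.0782).

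DKK1 under MC1568 read 17.2 and 18.1 TPM, above every DMSO sample, with a change of 0.63 ± 0.46 that was not called (limma adjusted p = 0.351). LEF1 read 13.3 and 12.3 TPM, within or next to its DMSO range, with a change of 0.01 ± 0.37. SFRP1 read 43.1 and 28.3 TPM, again above every DMSO sample, with a change of 0.67 ± 0.26 that missed the threshold (limma adjusted p = 0.0624). For AXIN2 (10.7 and 9.10 TPM) and TCF7 (5.18 and 5.49 TPM) the differences from DMSO were 0.58 ± 0.24 and 0.35 ± 0.32, neither of them called. Against only the 2 DMSO samples on the flow cell of MC1568, 4 more members were called higher. They were SFRP1 (0.70, limma adjusted p = 0.0445), DKK1 (0.62, 0.0373), AXIN2 (0.60, 0.0202) and TCF7 (0.51, 0.0161). The share of all genes called in that comparison is not given here, so this count is not set against a background. Whether MC1568 differed from LAQ824 or WT161 in DKK1 and LEF1 was not tested.

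Bromosporin, a pan-bromodomain inhibitor, lowered DKK1 and LEF1 and raised SFRP1, with 35.8% of all genes called, 12.4% higher and 23.4% lower. LEF1 read 1.76 TPM at the high and 5.33 TPM at the low dose, a change of -1.71 ± 0.37 (limma adjusted p = 0.0012). DKK1 read 2.03 and 4.42 TPM, on 29 and 32 reads, a change of -1.57 ± 0.46 (limma adjusted p = 0.0104). SFRP1 read 50.9 and 28.5 TPM, a change of 0.79 ± 0.26 (limma adjusted p = 0.0187). All 3 genes lay outside their DMSO range at both doses. Of the 40 treated screen samples, LEF1 was below every DMSO sample in 24 and above in 8. DKK1 was below in 11 and above in 19, and SFRP1 above in 15 and below in 10. DKK3 read 45.1 and 43.7 TPM, below its DMSO samples, and NKD2 read 0.978 and 0.361 TPM. Their changes, -0.22 ± 0.16 and 0.04 ± 0.35, were not called. TCF7 read 1.72 and 2.18 TPM, below every DMSO sample, a change of -0.75 ± 0.32 that was not called (limma adjusted p = 0.0709). AXIN2 read 9.75 and 7.48 TPM, above every DMSO sample, and its change of 0.39 ± 0.24 was not called (limma adjusted p = 0.210). In a fit of only Bromosporin and DMSO none of the changes of LEF1, DKK1 and SFRP1 was called (limma adjusted p between 0.181 and 0.246).

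NKD1, which binds dishevelled and is a common readout of WNT signalling, read 1.37 TPM on 94 reads at the high dose of Bromosporin. At the low dose it read 0.457 TPM on 16 reads, and the 4 DMSO samples read 0.042 to 0.0873 TPM on 3 to 6 reads. Both treated samples were above all 4 controls. NKD1 did not pass the filter on low values. When all genes with a read were tested, its change was 0.80 ± 0.13 (limma adjusted p = 0.000225). SGC-CBP30 gave NKD1 0.462 TPM at the high dose and 0.141 TPM at the low dose, on 19 and 6 reads, with a change of 0.27 ± 0.13 (limma adjusted p = 0.333).

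SGC-CBP30, which binds the bromodomain of the acetyltransferases CREBBP and EP300, had 0 members called. At its high dose DKK1 read 1.53 TPM on 13 reads, and at its low dose 9.74 TPM on 86 reads. Both were below the DMSO samples of their own concentration, with differences in log2(TPM + 1) of -2.08 at the high dose and -0.35 at the low dose. The change over both doses was -1.21 ± 0.46 (limma adjusted p = 0.161). LEF1 read 6.77 and 11.6 TPM, a change of -0.46 ± 0.37, and SFRP1 read 35.7 and 29.4 TPM, a change of 0.56 ± 0.26 (limma adjusted p = 0.254).

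Merck60 and OJI-1, labelled as HDAC1/2 and HDAC8 inhibitors, had 0 members called. Under Merck60 DKK1 read 15.3 and 11.8 TPM at the high and low dose, and LEF1 10.3 and 13.4 TPM. DKK3 read 43.0 and 47.8 TPM, both below the DMSO samples. Under OJI-1 DKK1 read 15.6 and 12.2 TPM, LEF1 13.3 and 14.8 TPM, and DKK3 54.0 and 42.7 TPM. Changes of the 7 members ranged from -0.20 to 0.26 under Merck60 and from -0.53 to 0.30 under OJI-1.

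**Figure D3:**
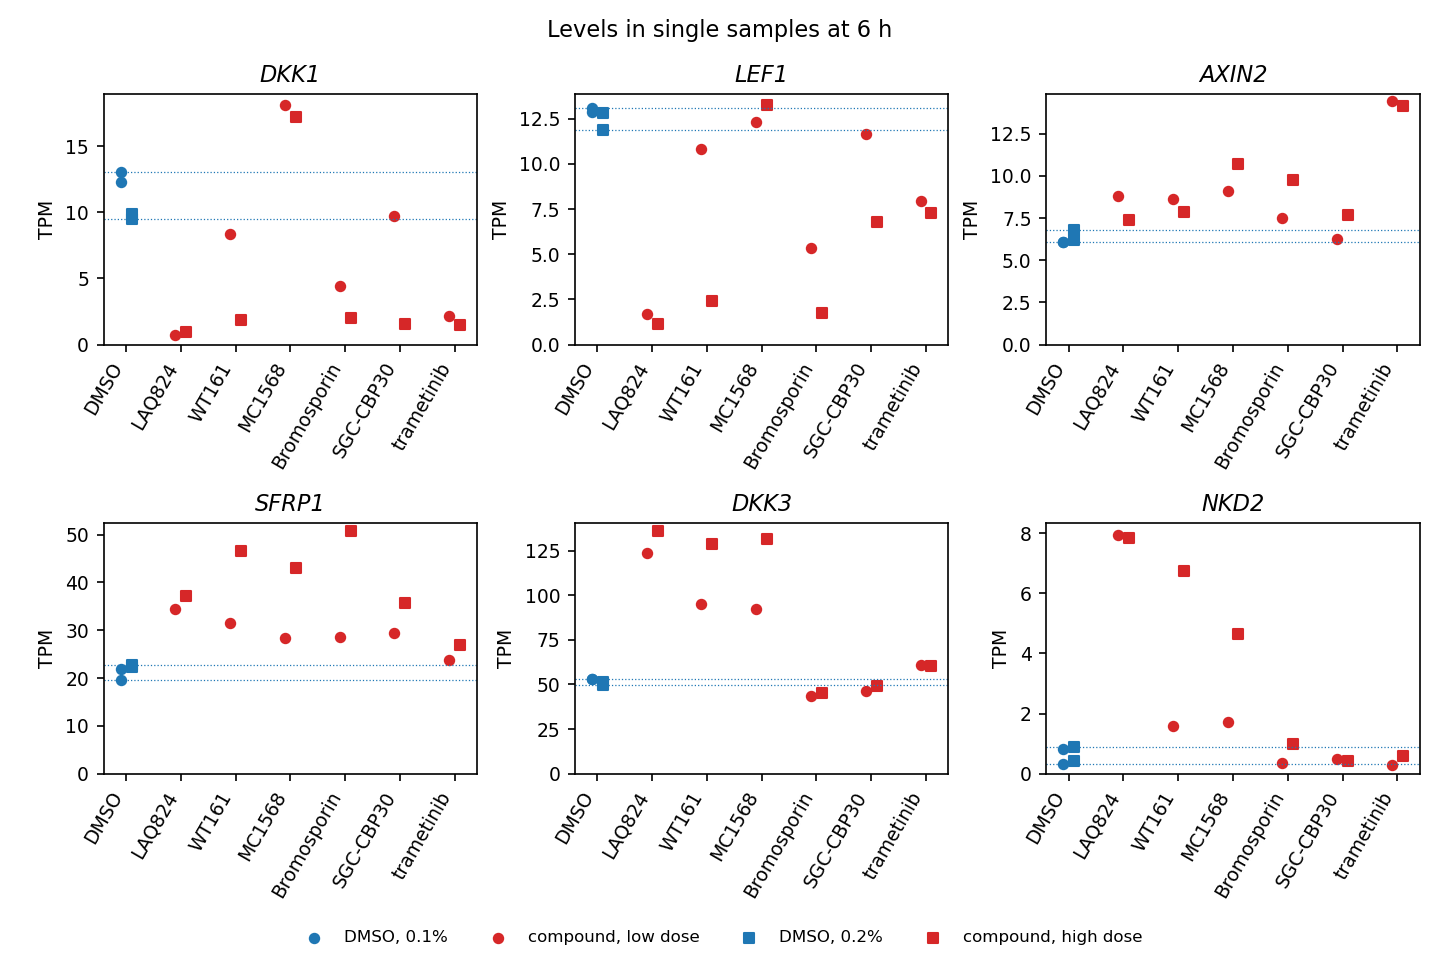
TPM of 6 genes in single samples at 6 h, with circles for the low dose or 0.1% DMSO, squares for the high dose or 0.2% DMSO, blue for DMSO and red for the compound; dotted lines mark the lowest and highest DMSO sample. DKK1 and LEF1 are low at both doses of LAQ824 and lower at the high than the low dose of WT161, Bromosporin and SGC-CBP30. DKK3 and NKD2 are high under LAQ824, WT161 and MC1568, and AXIN2 is highest under trametinib.

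Trametinib, a MEK1/2 inhibitor, moved DKK1 and AXIN2 in opposite directions. AXIN2, the scaffold of the destruction complex, read 14.2 and 14.4 TPM at the high and low dose. Its DMSO samples read 6.06, 6.08, 6.22 and 6.80 TPM, so the groups did not overlap. That DMSO range was narrow: AXIN2 was above it in 23 of the 40 treated screen samples and below it in 8. Of the 22 methylation-axis samples 11 were above it. The share of all genes without overlap was not worked out. The change was 1.07 ± 0.24 (limma adjusted p = 0.0117). DKK1 read 1.47 and 2.20 TPM, on 13 reads in each sample, a change of -2.10 ± 0.46 (limma adjusted p = 0.0110). Of all genes 2.70% were called under trametinib, 1.33% higher and 1.37% lower, beside 1 member higher and 1 lower of 7 tested. Because the members were chosen with earlier results of these data known, these shares are no test of the list.

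LEF1 read 7.27 and 7.97 TPM under trametinib, below every DMSO sample, as it was in 24 of the 40 treated screen samples. Its change of -0.67 ± 0.37 was not called (limma adjusted p = 0.515). TCF7, DKK3 and SFRP1 changed by 0.06 ± 0.32, 0.22 ± 0.16 and 0.22 ± 0.26, none of them called. The flow cell of trametinib carried no DMSO sample. Against the mean of the other compounds on it, the changes were -2.02 for DKK1 (limma adjusted p = 0.00874) and 0.92 for AXIN2 (limma adjusted p = 0.0124). For LEF1 the change was then -0.33 (limma adjusted p = 0.777). The changes of DKK1 and AXIN2 were also called in a fit of only trametinib and DMSO.

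Across the 11 methylation-axis compounds 0 of 77 member tests were called, where 2.20% of all tests were. DKK1 read between 7.57 and 18.6 TPM in their 22 samples, above every DMSO sample in 13 and below every DMSO sample in 2. LEF1 read between 7.74 and 15.8 TPM, with 12 samples below and 4 above the DMSO range. DKK3 stayed between 36.6 and 59.7 TPM and NKD2 at or below 1.42 TPM.

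SFRP1 was the member nearest to a call on the methylation axis. Under UNC0638, labelled as a KMT1C inhibitor, it read 9.83 TPM at the high and 17.4 TPM at the low dose, both below every DMSO sample. The change was -0.68 ± 0.26 (limma adjusted p = 0.0795). Against the other compounds of its flow cell it was -0.80 (limma adjusted p = 0.0223). UNC1999, labelled EZH1, gave 11.8 TPM at the high and 20.6 TPM at the low dose, with a change of -0.44 ± 0.26 that was not called. AXIN2 read 11.4 TPM at the high dose of UNC0638, on 118 reads, and its change of 0.48 ± 0.24 was not called either.

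The axes were then compared with compounds as the units, using limma on the 7 acetylation and 11 methylation means. None of the 7 members was called, and neither was any of the 16359 genes (0% called), although 5012 genes had an unadjusted p below 0.05. SFRP1 changed by 0.49 ± 0.38 (SD, n = 7) on the acetylation axis and by -0.18 ± 0.21 (SD, n = 11) on the methylation axis. The difference was 0.67 ± 0.13 (SE; limma adjusted p = 0.0569). That adjusted value was the smallest of all and was shared by 567 genes, SFRP1 among them. DKK1 differed by -1.08 ± 0.34 (limma adjusted p = 0.0669), with means of -0.79 ± 1.22 and 0.29 ± 0.26. Acetylation-axis compounds spread widely, from -2.72 to 0.63 for DKK1 and from -2.51 to 0.13 for LEF1. The result turned on single compounds: SFRP1 and DKK1 were called without MC1568 or without Merck60, and SFRP1, DKK1 and LEF1 without OJI-1. Of all genes, 15.3% were then called without MC1568, 16.1% without Merck60 and 18.3% without OJI-1, so many genes crossed the threshold together. At the high doses alone SFRP1 was called (0.92, limma adjusted p = 0.0362), with 1600 genes (9.78% of all).

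In the RH4-titled samples each condition had 1 sample, so no test was made, and a change was counted from a difference of 1 in log2(TPM + 1). Intervals given here are 95% intervals of the ratio of TPM values from the read numbers and cover counting error only. N1302, an HDAC inhibitor, gave 3 members higher and 2 lower by this rule after 6 h, where 30.9% of all genes passed it, 11.6% higher and 19.3% lower. DKK1 read 21.9 TPM in DMSO on 398 reads and 0.867 TPM under N1302 on 11 reads, a ratio of 0.0395 (0.0196 to 0.0715). LEF1 read 17.7 and 3.12 TPM, a ratio of 0.176 (0.138 to 0.223).

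Under N1302 DKK3 went from 49.6 to 141 TPM, a ratio of 2.84 (2.66 to 3.03), and SFRP1 from 29.9 to 70.1 TPM, a ratio of 2.34 (2.19 to 2.51). NKD2 went from 0.144 TPM on 3 reads to 5.98 TPM on 87 reads, a ratio of 41.4 (13.7 to 205). AXIN2 read 4.82 and 4.77 TPM, and TCF7 2.28 and 3.69 TPM. The difference for AXIN2 was -0.01, and with median-ratio scaling it was 0.27. That scaling moved the median of all genes under N1302 from -0.11 to 0.03 and changed no other direction among the 7 members.

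Entinostat, which inhibits class I HDACs, was followed over time. At 1 h 0 members passed the rule, where 1.24% of all genes did, and differences ranged from -0.12 to 0.18. At 6 h 0 members passed, where 6.08% of all genes did, 5.13% higher and 0.947% lower. The differences at 6 h were -0.89 for LEF1 (18.1 TPM in DMSO and 9.31 TPM under entinostat), 0.66 for DKK3 (31.2 and 49.8 TPM) and 0.79 for NKD2 (0.044 TPM on 1 read and 0.81 TPM on 23 reads). The ratio for LEF1 was 0.513 (0.455 to 0.577). Median-ratio scaling moved the median of all genes at 6 h from 0.02 to 0.12 and changed no direction among the 7 members.

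At 24 h DKK3, SFRP1 and NKD2 passed the rule, 3 higher and 0 lower, where 22.4% of all genes passed, 16.4% higher and 6.06% lower. DKK3 read 33.8 TPM in DMSO and 184 TPM under entinostat, a ratio of 5.45 (5.12 to 5.80). SFRP1 read 22.4 and 67.8 TPM, a ratio of 3.02 (2.84 to 3.22). NKD2 read 0.224 TPM on 6 reads and 17.0 TPM on 418 reads, a ratio of 75.7 (34.5 to 207). NKD1 had 0 reads in DMSO and 71 reads, or 0.684 TPM, under entinostat. The lower 95% bound of that ratio was 20.4. Against 3 reads as the limit of a count of 0 in that library, and with the 71 reads taken as exact, the level was at least 25.7-fold higher.

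DKK1 and LEF1 did not move together at 24 h of entinostat. DKK1 read 4.20 TPM in DMSO and 8.24 TPM under entinostat, a ratio of 1.96 (1.52 to 2.54), while LEF1 read 16.2 and 10.5 TPM, a ratio of 0.647 (0.574 to 0.728). AXIN2 read 11.3 and 16.8 TPM, a ratio of 1.49 (1.35 to 1.66). None of these differences reached 1 on the log2 scale.

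**Figure D4:**
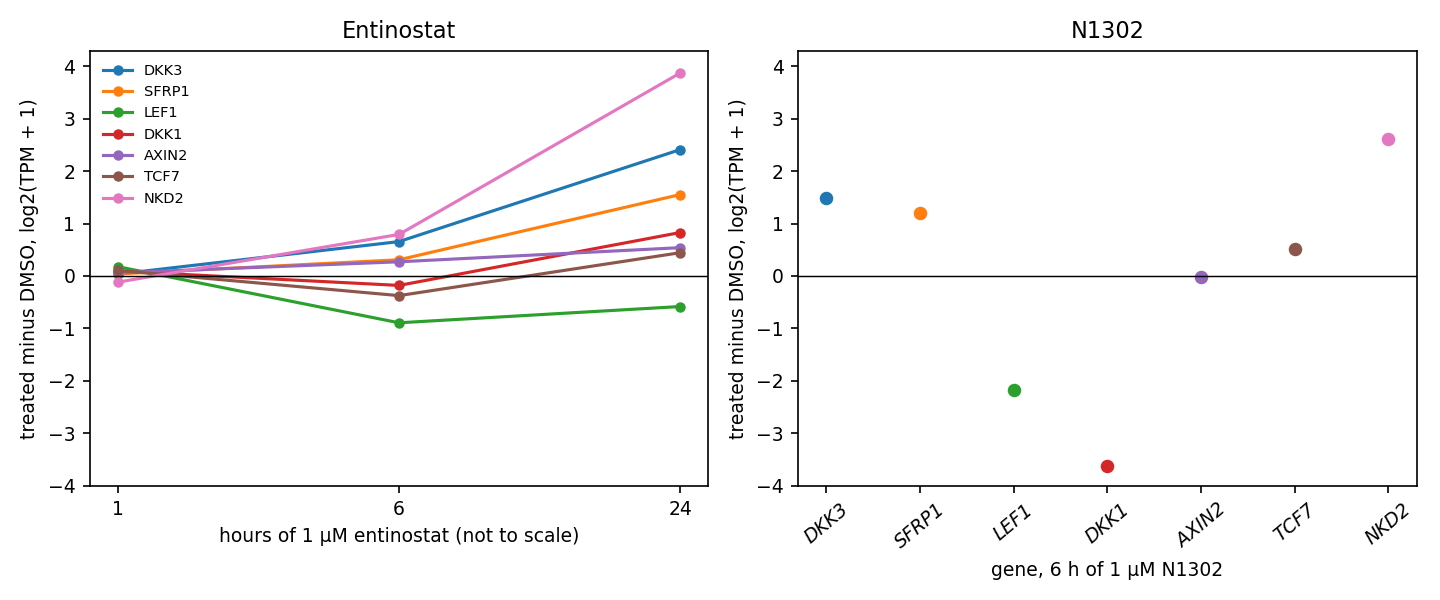
Difference in log2(TPM + 1) between treated and DMSO samples of the RH4-titled experiments, 1 sample each; left, 1, 6 and 24 h of 1 µM entinostat (time axis not to scale), and right, 6 h of 1 µM N1302. At 24 h of entinostat NKD2 stands at 3.87, DKK3 at 2.41 and SFRP1 at 1.55. Under N1302 DKK1 stands at -3.62 and LEF1 at -2.18, while NKD2, DKK3 and SFRP1 are above 1.

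The controls of these experiments differed from each other in some members. In the 2 RH4-titled samples with 6 h of 0.1% DMSO, DKK1 read 21.9 TPM in the N1302 experiment and 5.85 TPM in the entinostat course, and AXIN2 read 4.82 and 11.6 TPM. With both samples as the reference, DKK1 differed by -2.75 under N1302 and by -1.05 under entinostat at 6 h. LEF1 was similar in both controls, at 17.7 and 18.1 TPM. The part of the experiment in the DKK1 and AXIN2 values was not tested.

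Across the 42 screen profiles, with DMSO of each concentration counted once, DKK1 and LEF1 varied together (Pearson r = 0.85), and so did DKK3 and NKD2 (r = 0.84). SFRP1 went with NKD2 (r = 0.64) and DKK3 (r = 0.61), and against DKK1 (r = -0.63) and LEF1 (r = -0.60). AXIN2 had its largest correlation in size with DKK1 (r = -0.42). These values are descriptions, since the profiles share DMSO conditions, flow cells and the same few strong compounds. Among 11120 genes with a mean of at least 5 TPM, the 3 whose profiles were most like that of DKK1 were MYCN (r = 0.94), RUNX2 (0.94) and ARHGAP6 (0.93). LEF1 was most like ARHGAP10 (0.95), DLX1 (0.95) and PTPN9 (0.94). KIAA1522 was among the 3 nearest to both DKK3 (0.90) and NKD2 (0.92). The nearest gene was SPECC1 for SFRP1 (0.90), KIRREL for TCF7 (0.82) and ACVR2A for AXIN2 (0.74).

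Further genes of the pathway were taken from lists of ligands, receptors, antagonists, destruction complex, nuclear partners and other targets, 88 genes of which 64 were tested. LAQ824 called 16 higher and 26 lower, where 28.4% and 24.6% of all genes were called. WT161 called 12 and 16 (17.7% and 14.3% of all genes), Bromosporin 11 and 19 (12.4% and 23.4%), MC1568 17 and 2 (19.6% and 2.92%), and trametinib 4 and 5 (1.33% and 1.37%). The medians of the 64 were -0.32 under LAQ824 and 0.40 under MC1568, against 0.06 and 0.26 over all genes.

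Among the ligands, WNT3 fell and WNT11 rose under both LAQ824 and WT161. WNT3 read 27.8 TPM in DMSO and 4.92 and 4.86 TPM at the high and low dose of LAQ824, a change of -2.29 ± 0.18 (limma adjusted p = 3.28e-09). WNT11, which mostly acts outside the beta-catenin branch, read 0.131 TPM in DMSO and 3.81 and 3.11 TPM, a change of 1.98 ± 0.34 (limma adjusted p = 2.95e-05). The LAQ824 samples alone took WNT11 past the filter of 1 TPM in 2 samples, so its test is not independent of that filter. WNT5A read 16.1 TPM in DMSO and fell under Bromosporin to 1.72 and 8.75 TPM, a change of -1.73 ± 0.33 (limma adjusted p = 0.000443). Of 9 ligands tested, 4 rose and 3 fell under LAQ824, where 28.4% of all genes rose and 24.6% fell.

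Of 12 genes for beta-catenin and its nuclear partners, 7 fell and 2 rose under LAQ824, where 24.6% of all genes fell and 28.4% rose. PYGO1, which binds BCL9 in the beta-catenin complex, read 12.9 TPM in DMSO and 1.01 and 0.734 TPM, a change of -2.90 ± 0.30 (limma adjusted p = 5.41e-08). TLE3, a co-repressor that binds LEF1 and TCF7, fell by 1.41 on the log2 scale (limma adjusted p = 2.86e-07). In the destruction complex and dishevelled list LAQ824 called 1 higher and 6 lower of 13, beside the same shares of all genes, and APC2 was the gene that rose, from 0.731 to 5.44 and 5.83 TPM. The DMSO level of APC2 was below the 1 TPM of the filter.

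Among other secreted or membrane antagonists all 6 tested fell under Bromosporin, where 23.4% of all genes fell. NOTUM, an enzyme that inactivates WNT proteins, went from 4.61 TPM in DMSO to 1.03 and 0.787 TPM, a change of -1.55 ± 0.27 (limma adjusted p = 0.000221). Under SGC-CBP30, where 3.41% of all genes were called, 0.727% higher and 2.68% lower, 0 rose and 6 of the 64 pathway genes fell. They included the DKK1 co-receptor gene KREMEN2, which went from 123 TPM to 48.1 and 64.0 TPM (-1.13 ± 0.17, limma adjusted p = 0.000533). In the RH4-titled course NOTUM read 0.944 TPM in DMSO and 5.88 TPM under entinostat at 6 h, and 1.01 and 17.0 TPM at 24 h.

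TNFRSF19, a WNT target gene of the tumour necrosis factor receptor family, rose under LAQ824 from 6.00 TPM in DMSO to 95.7 and 93.2 TPM. Its change was 3.77 ± 0.36 (limma adjusted p = 2.49e-08), and it also rose under WT161 (2.89) and Bromosporin (1.58). CCND1, the cyclin D1 gene, went from 48.4 TPM in DMSO to 3.10 and 3.35 TPM under trametinib (-3.54 ± 0.45, limma adjusted p = 3.07e-05). The co-receptor LRP5 and the receptor FZD8 fell under trametinib too, with changes of -1.16 and -1.28. LAQ824 called 1 of 5 tested genes of this target list higher and 3 lower, where 28.4% of all genes were higher and 24.6% lower.

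UNC0638, where 12.1% of all genes were called, 2.37% higher and 9.76% lower, called 2 of the 64 pathway genes higher and 4 lower. WNT2B, a ligand of the beta-catenin branch, read 1.00 TPM in DMSO, 7.23 TPM at the high and 1.38 TPM at the low dose, a change of 1.14 ± 0.35 (limma adjusted p = 0.0344). LGR5, an R-spondin receptor and WNT target gene, read 8.60 TPM in DMSO and 32.5 and 9.87 TPM, a change of 0.99 ± 0.32 (limma adjusted p = 0.0432). For both genes the high-dose sample carried nearly the whole change.

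The samples carried between 5737939 and 41415071 reads, worked out from the TPM values. All 8 muscle and FP-RMS markers were above 1 TPM in every sample, but their levels varied widely. MYOD1 ranged from 48.5 to 648 TPM, MYOG from 32.2 to 1287, DES from 188 to 768, CDH15 from 66.0 to 405 and FGFR4 from 389 to 1339. PAX3 ranged from 1.19 to 54.8 TPM, FOXO1 from 13.4 to 127 and MYH3 from 2.24 to 16.8. Defining markers of other cell types, PTPRC, EPCAM, CDH1, KRT5 and PECAM1, stayed below 1 TPM in every sample, and ALB reached at most 2.99 TPM. The 28 samples of the flow cell C5JW5ACXX held 14 of the compounds and 0 DMSO samples, so for these compounds DMSO was read from other flow cells. Of the 18 called changes 16 were also called within the flow cell. The reference there was DMSO for LAQ824 and MC1568. For WT161, Bromosporin and trametinib it was the mean of the other compounds on the flow cell.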

How the data were processed

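Poly-A RNA was sequenced as paired-end libraries. The paper names STAR for alignment to hg19 and RSEM for quantification of genes. The processing tools listed with the samples include STAR but not RSEM. Which tool quantified the deposited values is therefore not settled here. The deposited values are TPM, which the authors scaled by gene length and depth, 1 value per gene and sample, and columns sum to 1000000. Samples were grouped from the labels. Members and gene lists were chosen with earlier results of these data known.

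Whole read numbers were recovered for 100.0% of 23645 genes with a value above 0, to within 0.01 reads, because values across samples stepped in units of 1 read. They served for depth, quoted read numbers, intervals and the limit for a count of 0. The counting noise used to decide that DMSO samples of the same concentration be averaged also came from them.

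Genes with at least 1 TPM in 2 of 52 samples were analysed as log2(TPM + 1), which understates changes of low genes. limma 3.58.1 in R 4.3.3 (lmFit, eBayes with trend) was fitted to 42 profiles with 21 residual degrees of freedom, both doses of a compound being its 2 samples. Axes were compared on 18 compound means. Tests were two-sided with Benjamini-Hochberg adjustment. Both steps were tested on simulated data.

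The 10 members are named throughout. From the pathway lists at most 3 called genes per direction and compound with the smallest adjusted p were eligible, or the largest differences where there was 1 sample. Sequences come from RefSeq tables; coordinates of genes are those of the files, with strand and overlaps from GENCODE for GRCh37. Alternatives were another pseudocount, scaling, filter, reference, dose and flow cell, and leaving out DMSO replicates or compounds. Python 3.11.15 with numpy 2.4.6 and pandas 2.3.3 did the rest.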

Additional observations from a re-analysis of the deposited data

Results flagged for a closer look

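LEF1 and TCF7 moved in opposite directions at different times of entinostat, with counting intervals on either side of no change. For LEF1 the difference from DMSO was 0.18 at 1 h, -0.89 at 6 h and -0.58 at 24 h. For TCF7 it was -0.37 at 6 h and 0.44 at 24 h. Each time had 1 sample per condition, and the difference between times was not tested.

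NKD1 had a signal although it lay outside the tested genes. It read 1.37 TPM at the high dose of Bromosporin, where the screen DMSO samples read at most 0.0873 TPM, and 0.684 TPM at 24 h of entinostat, where its DMSO sample had 0 reads. Groups of 4 or more samples did not occur, so no sample was compared with the rest of its group.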

How the results depend on the processing

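The count of 18 called member changes ranged from 13 to 23 over the alternatives, and 0 of the 18 reversed. Of these, 7 were called under every alternative that gave them a test: DKK1, DKK3, LEF1 and NKD2 under LAQ824, DKK3 under MC1568, and DKK1 and AXIN2 under trametinib. A fit of only the compound and DMSO called 9 of the 18. Its spread comes from fewer samples, namely the doses of that compound and DMSO. It kept every called change under LAQ824 and trametinib, and DKK3 under MC1568. It lost every called change under WT161 and Bromosporin, and NKD2 under MC1568. Why these were lost was not tested. Requiring a log2 change of at least 1 called 14. DKK1 under WT161 was not called with a pseudocount of 0.1 (adjusted p = 0.0540) or without the filter (0.0778), nor TCF7 under LAQ824 without the filter (0.0572). The axis comparison, with 0 members called, gave 1 member with a mean TPM of at least 5 (727 genes called) and 1 at the high dose alone (1600 genes), and between 0 and 3 when compounds were left out in turn (2500 genes without MC1568, 2627 without Merck60 and 2992 without OJI-1). The cause was not tested. Entinostat at 6 h, with 0 members at 2-fold, gave 1 with a pseudocount of 0.1, 1 with both RH4-titled 6 h DMSO samples and 3 at 1.5-fold. The shares of all genes that passed under these alternatives are not given here. Comparing DMSO concentrations with the replicate number as a block called 0 members and 0 genes (1768 with an unadjusted p below 0.05), and same-numbered samples correlated by 0.0719 in their deviations, over 2 pairs that shared a flow cell. Low read numbers limit NKD2 and NKD1 in DMSO and DKK1 where it fell.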

Other observations

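DACT1, which binds dishevelled, moved under several compounds with weak effects elsewhere. It read 13.2 TPM in DMSO, fell under Cpd50 to 5.96 and 7.37 TPM (-0.89 ± 0.14, limma adjusted p = 8.86e-05) and rose under trametinib to 23.8 and 22.0 TPM (0.75 ± 0.14, limma adjusted p = 0.00207). LGR4, another R-spondin receptor, read 15.0 TPM in DMSO and 97.4 TPM after 24 h of entinostat, with 1 sample each.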
